A study of Mus musculus with 24 samples.

Results

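The T cell marker genes are a set of 10 genes that are read as signs of T cells in a tissue: the CD3 chains Cd3d, Cd3e and Cd3g, the coreceptors Cd4, Cd8a and Cd8b1, the surface proteins Cd2 and Cd5, the kinase gene Lck and the transcription factor gene Foxp3. They were chosen by name, and each was looked up by its symbol in the annotation of the array. Of the 10 genes, 8 had a probe set under their symbol, 1 each, out of 19505 genes on the array. Lck and Foxp3 were not analysed here. The study profiled RNA of whole pancreatic ductal adenocarcinoma tumours from mice on Clariom S arrays, which read transcripts of known genes with short probes. There were 4 groups of 6 tumours, 24 in all. The combination group received both BMS754807, which blocks the kinases of IGF1R and of the insulin receptor, and hydroxychloroquine, a drug that blocks the last steps of autophagy in the lysosome. A group each received BMS754807 alone and hydroxychloroquine alone, and the control group received what the labels call vector. The labels name no strain, genotype, age, dose, treatment time or tumour site. They do not tie the 6 tumours of a group to different animals, so errors and p-values describe the spread between these samples.

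T cells recognise peptides on other cells through the T cell receptor, whose signal enters the cell through the CD3 chains encoded by Cd3d, Cd3e and Cd3g. CD4 and CD8 hold the receptor to class II and class I histocompatibility molecules, so Cd4 marks helper and regulatory T cells, and Cd8a and Cd8b1 mark cytotoxic ones. CD2 is an adhesion receptor of T cells, NK cells and other lymphocytes, so it is not specific to T cells. CD5 damps the signal of the T cell receptor, LCK is the kinase that starts it, and FOXP3 is the factor of regulatory T cells. Pancreatic ductal adenocarcinoma is known as a tumour with few T cells among abundant stroma and myeloid cells. In mice, CD4 and the CD8 alpha chain are also made by some dendritic cells, and CD5 by some B cells.

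The promoters of the measured members that had an entry, Cd3e, Cd3d, Cd3g, Cd8a and Cd5, are shown here. Each is the 250 bases before the start of the gene in the RefSeq annotation of assembly GRCm38.p6, 5′ to 3′ on the strand of the gene. Of the 10 genes, 7 had an entry, in 9 windows because Lck and Foxp3 had a pair each, and Cd4, Cd8b1 and Cd2 had none. Capitals mark the core of the sites of ETS factors, GGAAG or CTTCC on the other strand. Cd3e lies at chr9:45009612-45009861 on the minus strand, Cd3d at chr9:44981536-44981785 on the plus strand and Cd3g at chr9:44980432-44980681 on the minus strand. Cd8a lies at chr6:71373177-71373426 on the plus strand and Cd5 at chr19:10738975-10739224 on the minus strand.
Cd3e: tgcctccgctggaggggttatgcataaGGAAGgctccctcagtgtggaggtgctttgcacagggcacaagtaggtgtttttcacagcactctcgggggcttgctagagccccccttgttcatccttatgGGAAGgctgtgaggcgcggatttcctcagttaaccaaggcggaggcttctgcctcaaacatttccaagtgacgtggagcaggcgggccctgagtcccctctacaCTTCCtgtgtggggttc
Cd3d: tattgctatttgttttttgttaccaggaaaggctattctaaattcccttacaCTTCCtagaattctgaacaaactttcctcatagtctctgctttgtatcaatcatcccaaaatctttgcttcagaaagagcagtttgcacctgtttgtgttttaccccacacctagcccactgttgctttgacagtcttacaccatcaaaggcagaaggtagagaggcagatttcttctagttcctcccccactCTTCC
Cd3g: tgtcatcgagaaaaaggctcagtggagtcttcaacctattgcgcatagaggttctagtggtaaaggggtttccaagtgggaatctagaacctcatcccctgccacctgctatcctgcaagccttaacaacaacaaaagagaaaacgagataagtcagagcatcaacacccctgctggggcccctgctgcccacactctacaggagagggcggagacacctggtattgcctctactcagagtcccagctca
Cd8a: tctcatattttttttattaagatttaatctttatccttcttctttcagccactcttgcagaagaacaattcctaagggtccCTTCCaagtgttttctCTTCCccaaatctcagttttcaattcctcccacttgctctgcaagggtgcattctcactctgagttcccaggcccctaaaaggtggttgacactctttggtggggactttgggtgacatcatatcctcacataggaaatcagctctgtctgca
Cd5: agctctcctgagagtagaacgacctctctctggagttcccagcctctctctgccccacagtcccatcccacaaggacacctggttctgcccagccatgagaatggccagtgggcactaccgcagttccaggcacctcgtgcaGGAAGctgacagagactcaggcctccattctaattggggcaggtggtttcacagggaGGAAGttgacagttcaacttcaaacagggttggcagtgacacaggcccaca
The ETS core occurred 3 times in the window of Cd3e, 2 times each in those of Cd3d, Cd8a and Cd5, and 0 times in that of Cd3g. It was held by 64.1% of all 32851 promoter windows of this length, so its presence does not set these genes apart. The core of RUNX sites, TGTGGT or ACCACA on the other strand, was in none of the 5 windows printed, against 14.0% of all windows. The E box CAGCTG was in none of them either, against 13.0% of all windows. These motifs share no letters with each other in the windows printed, and a match to letters is a description, not a site.

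Values are log2 signal throughout, so a difference of 1 is a doubling. Array medians lay between 6.79 and 7.03, and pairs of arrays correlated at 0.975 to 0.994 over all genes, with 0 pairs holding mostly identical values. Keratin genes of ductal epithelium were high in every tumour, with Krt19 between 15.15 and 15.94. The muscle gene Acta1 ran from 4.31 to 16.36, so some pieces also held skeletal muscle transcripts. The files hold no detection calls. As a rough guide to the low end of the scale, the 1091 odorant receptor genes named Olfr, which are used in the nose, had a median mean signal of 3.03, and the 95th percentile of their means was 4.32. Cd3e and Cd4 exceeded that percentile in 24 of 24 tumours, and Cd8a and Cd2 in 22 of 24. Cd3d exceeded it in 8 tumours, Cd3g in 6, Cd8b1 in 2 and Cd5 in 1, so these 4 probe sets read near the low end in most tumours, where a change can be understated. In whole tumours, fewer cells of a type and less RNA per cell cannot be told apart.

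Among the CD3 chains, no treatment group stood apart, and the largest signal of each was in a single tumour treated with hydroxychloroquine alone. Cd3e, the chain most used to define T cells, ran from 4.39 over a median of 5.03 to 6.45 in combination tumours. It ran from 4.94 over 5.39 to 6.78 with BMS754807 alone, from 4.82 over 5.75 to 9.11 with hydroxychloroquine alone, and from 5.04 over 5.54 to 6.83 in controls. The groups overlapped, and the 9.11 was hydroxychloroquine tumour 1, with the next tumour of its group at 5.85. The means were 5.24 ± 0.74 in the combination, 5.63 ± 0.70 with BMS754807, 6.15 ± 1.5 with hydroxychloroquine and 5.71 ± 0.60 in controls (SD, n = 6 each). The difference from control was -0.48 ± 0.51 in the combination, -0.09 ± 0.51 with BMS754807 and 0.44 ± 0.51 with hydroxychloroquine (± SE, limma).

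Cd3d ran from 3.07 over a median of 4.10 to 4.64 in the combination, from 3.16 over 3.55 to 4.24 with BMS754807, from 2.75 over 3.82 to 6.38 with hydroxychloroquine and from 3.58 over 4.52 to 5.02 in controls. All 6 BMS754807 tumours read below the mean of the controls, although the ranges overlapped. The means of Cd3d were 4.04 ± 0.56 in the combination, 3.67 ± 0.42 with BMS754807, 4.09 ± 1.35 with hydroxychloroquine and 4.36 ± 0.61 in controls. The difference of BMS754807 from control was -0.68 ± 0.44, with a 95% interval of -1.60 to 0.23 and an adjusted limma p of 0.931. It kept its sign in all 34 alternatives, between -0.84 and -0.55, with the smallest adjusted p at 0.825. Cd3g ran from 2.78 over 3.85 to 4.68 in the combination, from 2.92 over 3.70 to 4.90 with BMS754807, from 3.12 over 3.57 to 6.41 with hydroxychloroquine and from 3.23 over 3.55 to 4.40 in controls. Its 3 differences from control lay between 0.08 and 0.35, each with an SE of 0.46, so all were smaller than the error. Combination tumours 4, 5 and 6 read 4.68, 4.44 and 4.60, while tumours 1, 2 and 3 of that group read 2.78, 3.14 and 3.26.

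The coreceptors behaved differently from one another. Cd4 was the steadiest member: it ran from 7.66 over a median of 7.92 to 8.41 in the combination, from 7.62 over 8.35 to 8.76 with BMS754807, from 7.88 over 8.20 to 8.85 with hydroxychloroquine and from 7.91 over 8.16 to 9.01 in controls. Its highest tumour was 2.62-fold above its lowest, and the highest was control tumour 5 rather than hydroxychloroquine tumour 1. The means of Cd4 were 7.98 ± 0.30 in the combination, 8.31 ± 0.42 with BMS754807, 8.32 ± 0.38 with hydroxychloroquine and 8.27 ± 0.41 in controls (SD, n = 6 each). The combination thus had the lowest mean, with 5 of 6 tumours below the mean of BMS754807 alone and 5 of 6 below that of hydroxychloroquine alone. Neither difference passed: it was -0.32 ± 0.21 against BMS754807 (limma adjusted p = 0.713) and -0.33 ± 0.21 against hydroxychloroquine (limma adjusted p = 0.902).

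Cd8a spread far more. It ran from 4.50 over a median of 4.63 to 5.43 in the combination, from 4.06 over 4.87 to 6.91 with BMS754807, from 4.49 over 5.25 to 8.56 with hydroxychloroquine and from 4.63 over 4.83 to 6.89 in controls. In each group 1 or 2 tumours stood well above the rest: combination 4 at 5.43, BMS754807 5 at 6.91 and BMS754807 2 at 6.13, hydroxychloroquine 1 at 8.56 and control 6 at 6.89. The combination had the narrowest spread of the 4, an SD of 0.35, against 1.16 with BMS754807, 1.52 with hydroxychloroquine and 0.86 in controls. These SDs were not compared with a test, and that of the hydroxychloroquine group was 0.46 without its tumour 1. All 6 combination tumours lay below the mean of hydroxychloroquine alone, which its tumour 1 pulled up. That difference was -0.85 ± 0.57 (limma adjusted p = 0.902), and without hydroxychloroquine tumour 1 it was -0.25.

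Cd8b1, whose protein pairs with the alpha chain on cytotoxic T cells, ran from 2.56 over a median of 3.58 to 3.99 in the combination, from 3.00 over 3.15 to 4.67 with BMS754807, from 2.61 over 3.07 to 6.99 with hydroxychloroquine and from 2.78 over 3.36 to 4.24 in controls. Hydroxychloroquine tumour 1, BMS754807 tumour 5 and control tumour 6 were the highest 3, as for Cd8a. Its means were 3.34 ± 0.62 in the combination, 3.49 ± 0.67 with BMS754807, 3.73 ± 1.63 with hydroxychloroquine and 3.39 ± 0.52 in controls (SD, n = 6 each), closer together than the SD of any of them. The 95% interval of the difference between combination and control ran from -1.13 to 1.03, which leaves room for a doubling either way.

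Cd2 showed the tightest controls of all members, from 5.02 over a median of 5.25 to 5.37, an SD of 0.15. With BMS754807 it ran from 4.23 over 4.72 to 6.68, and 5 of its 6 tumours read below every control. The combination ran from 4.32 over 5.14 to 5.55 and hydroxychloroquine from 4.03 over 5.01 to 7.67. The BMS754807 difference from control was -0.25 ± 0.43 (limma adjusted p = 0.989) with all tumours, and -0.60 without BMS754807 tumour 5. Cd5 ran from 3.30 over 3.70 to 4.12 in the combination, from 3.15 over 3.70 to 3.94 with BMS754807, from 2.86 over 3.58 to 4.79 with hydroxychloroquine and from 2.68 over 3.61 to 3.90 in controls. Mean Cd5 was 3.70 ± 0.26 in the combination, 3.63 ± 0.27 with BMS754807, 3.61 ± 0.67 with hydroxychloroquine and 3.39 ± 0.49 in controls. Cd5 and Cd3g were the 2 members above control in all 3 treated groups, but with hydroxychloroquine both were below control once tumour 1 of that group was left out, Cd5 at -0.02 and Cd3g at -0.14.

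**Figure D1:**
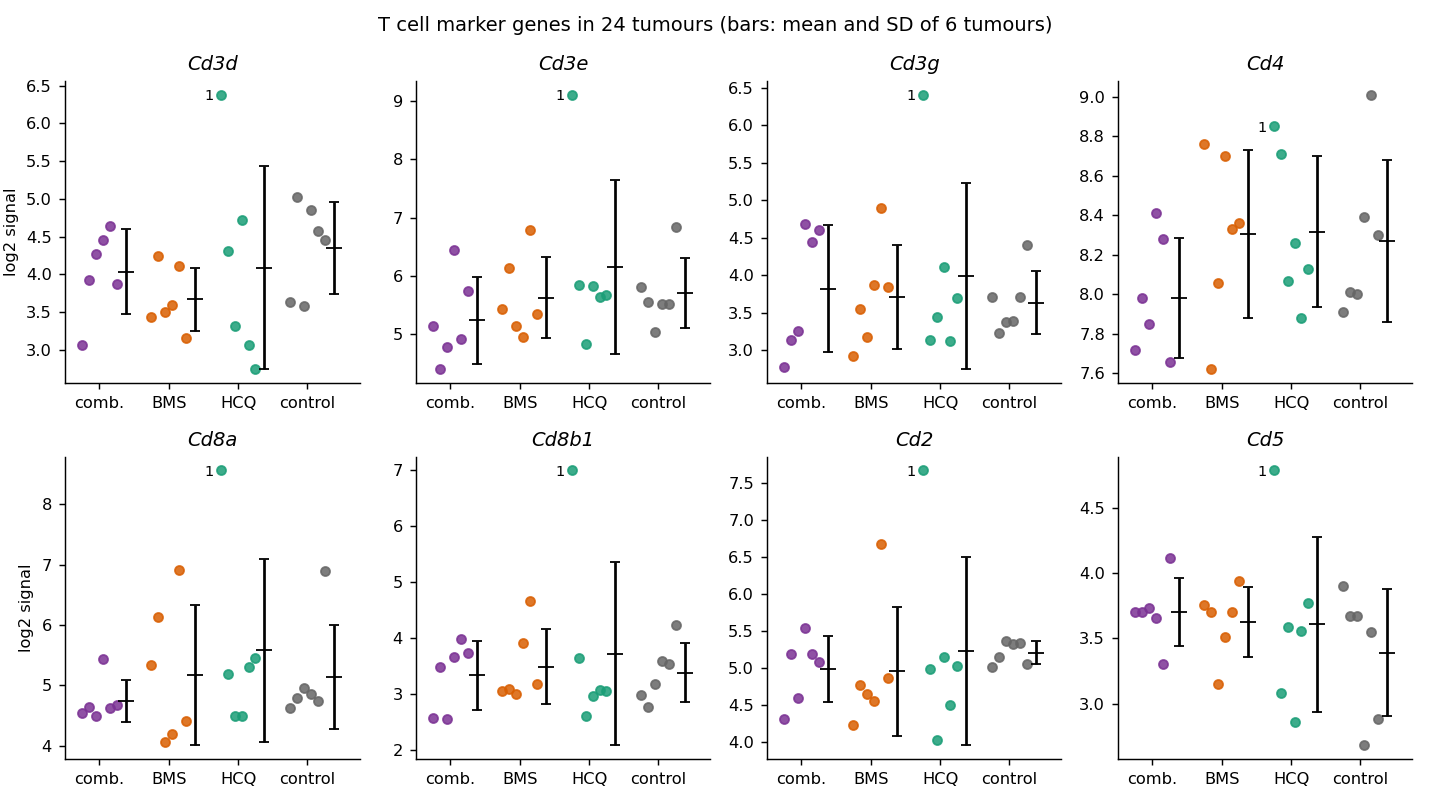
Log2 signal of the 8 measured T cell marker genes, a panel each, in the combination (comb), BMS754807 (BMS), hydroxychloroquine (HCQ) and control groups. Each point is a tumour, and the bar beside each group is its mean with the SD of 6 tumours. Hydroxychloroquine tumour 1 is the highest point for every gene except Cd4.

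None of the 8 members passed an adjusted p of 0.05 in any of the 5 comparisons between groups, in the interaction of the agents or in the test of any difference between the 4 groups. In each of these comparisons 0% of the 19505 genes were called after adjustment, so the members did as the array as a whole did. At an unadjusted p of 0.05, 0 of 8 members were called in each, against 5.06% of all genes for the combination against control, 5.88% for BMS754807 against control, 4.81% for hydroxychloroquine against control, 8.61% for the combination against BMS754807 and 5.39% for the combination against hydroxychloroquine. The unadjusted share was 5.05% for the interaction and 7.21% for any difference. The ranges of the groups overlapped for all 8 members in all 5 comparisons. Of all genes, the ranges did not overlap for 0.308% between combination and control, 0.174% between BMS754807 and control, 0.154% between hydroxychloroquine and control, 0.651% between combination and BMS754807, and 0.267% between combination and hydroxychloroquine. The comparisons against control share the control tumours.

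Counted by sign, the combination had 2 members above control and 6 below, with a median difference of -0.25, while 48.3% of all genes were below and their median was 0.01. BMS754807 had 5 above and 3 below, with a median of 0.03, and 49.6% of all genes were below. Hydroxychloroquine had 7 above and 1 below, with a median of 0.28, and 50% of all genes were below. That last count rested on a single tumour: without hydroxychloroquine tumour 1, 0 members were above control and 8 below, with a median of -0.15, and 51% of all genes were below. Without it, Cd3d was -0.72 ± 0.35 from control (limma adjusted p = 0.836), Cd2 was -0.47 and Cd8b1 was -0.31. Cd3d was then the 1 member with an unadjusted p under 0.05, as were 5.87% of all genes. Single tumours also moved the BMS754807 count, which at its extremes was 1 above and 7 below without control tumour 2, 2 and 6 without BMS754807 tumour 5, and 6 and 2 without control tumour 6 or BMS754807 tumour 3. The combination count changed only to 3 above and 5 below, without control tumour 6, combination tumour 1 or combination tumour 3. Its median was -0.35 to -0.11 over all removals of 1 tumour.

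Against hydroxychloroquine alone, the combination had 1 member above and 7 below, where 48% of all genes were below. Without hydroxychloroquine tumour 1 it had 5 above and 3 below, where 47.8% of all genes were below, and 0 of 8 members against 7.14% of all genes had an unadjusted p under 0.05. Against BMS754807 alone it had 4 above and 4 below, where 50.4% of all genes were below, among them Cd3d at 0.37 ± 0.44 and Cd8a at -0.44 ± 0.57. The interaction, which asks whether the effect of both agents together differs from the sum of the single effects, was -0.83 ± 0.73 for Cd3e and -0.87 ± 0.81 for Cd8a. It was 0.63 ± 0.62 for Cd3d, and 6 of 8 members had an interaction below 0, where 49.1% of all genes did. Every adjusted p of the interaction with all 24 tumours was at least 0.951 by limma. Without hydroxychloroquine tumour 1 the interaction was -0.24 for Cd3e, -0.28 for Cd8a and 1.09 for Cd3d. Cd8b1, Cd3g and Cd5 changed sign without that tumour, to 0.16, 0.24 and 0.09. The smallest adjusted limma p of the Cd3d interaction over all repeats was 0.834.

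**Figure D2:**
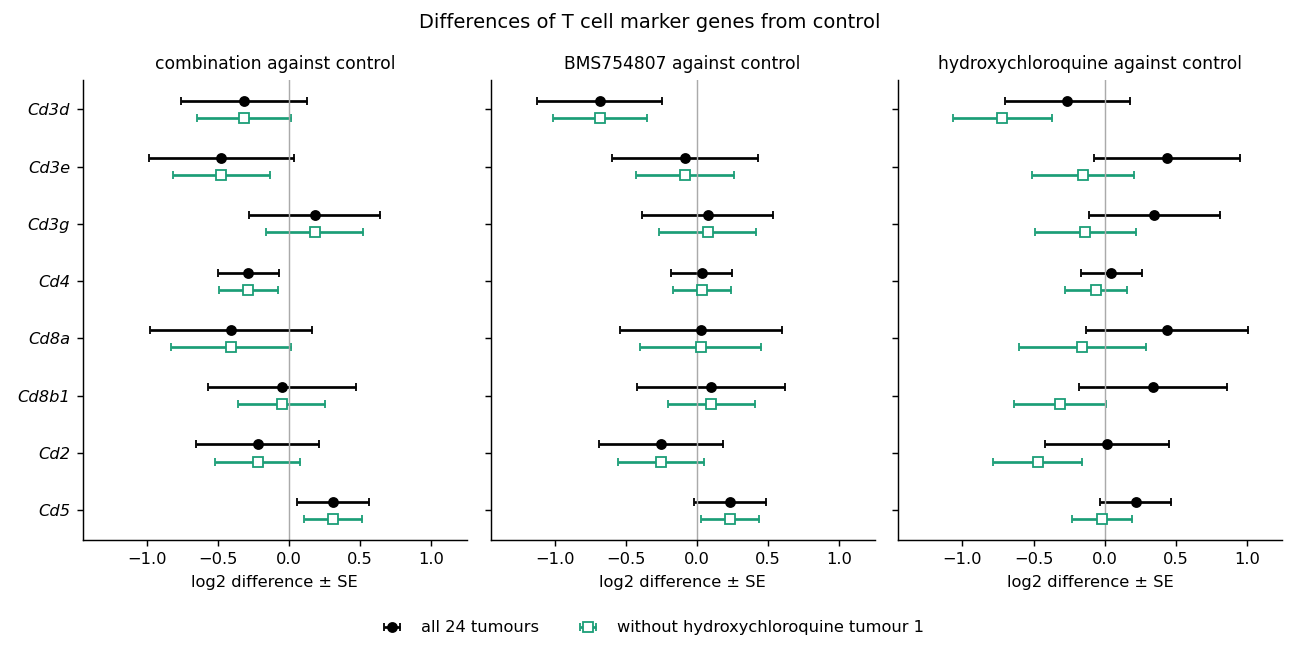
Log2 difference from control with its SE for each T cell marker gene, in the combination, BMS754807 and hydroxychloroquine groups. Filled circles use all 24 tumours and open squares leave out hydroxychloroquine tumour 1. In the hydroxychloroquine panel all 8 squares lie below 0, against 1 of 8 circles.

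The spread between tumours was large for most of these genes, and hydroxychloroquine tumour 1 added much of it. For 6 of the 8 members the SD within groups was among the highest on the array, at the 96.6th percentile of all genes for Cd2, the 96.8th for Cd3d, the 97.2nd for Cd3g, the 98.2nd for Cd3e, the 98.3rd for Cd8b1 and the 98.8th for Cd8a. Cd5 was at the 78.7th and Cd4 at the 64.5th percentile. The highest tumour exceeded the lowest 26.4-fold for Cd3e, 22.6-fold for Cd8a, 21.6-fold for Cd8b1, 12.5-fold for Cd2 and 4.32-fold for Cd5. Treatment group accounted for between 2.74% of the variance for Cd2 and 13.4% for Cd4, and the median over all genes was 12.2%.

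Hydroxychloroquine tumour 1 read highest of all 24 for 7 of the 8 members. Over the median of the 24 tumours it was 13.9-fold higher for Cd8b1, 13.8-fold for Cd8a, 11.9-fold for Cd3e, 6.92-fold for Cd3g, 6.17-fold for Cd2 and 5.15-fold for Cd3d. For Cd5 it was 2.17-fold and for Cd4 1.57-fold higher. It was the highest tumour for 5.64% of all genes. Other T cell lists followed to different degrees: it was highest for 10 of 17 genes of the T cell receptor complex and its signalling, 7 of 14 costimulation genes, 6 of 11 T cell transcription factors and 3 of 11 regulatory T cell genes. It was highest for 2 of 7 naive and recirculating T cell genes, as was BMS754807 tumour 5, and for 1 of 4 gamma delta T cell genes, whose mean was highest in hydroxychloroquine tumour 4. BMS754807 tumour 5 was among the highest 4 for 5 members, and control tumour 6 and combination tumour 4 for 3 each.

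These 4 tumours also led the mean of the 8 members, taken as the log2 distance of each gene from its mean over 24 tumours. That mean was 2.46 for hydroxychloroquine tumour 1, 0.88 for BMS754807 tumour 5, 0.50 for control tumour 6 and 0.41 in combination tumour 4. By group it ran from -0.65 over a median of -0.14 to 0.41 in the combination, from -0.54 over -0.23 to 0.88 with BMS754807, from -0.58 over -0.14 to 2.46 with hydroxychloroquine and from -0.23 over -0.08 to 0.50 in controls. The 4 medians lay between -0.23 and -0.08, and the groups differed in their highest tumour.

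B cell genes were high in 3 of these 4 tumours, and other cell types followed less closely. The mean of 12 B and plasma cell genes reached 3.45 for hydroxychloroquine tumour 1, 2.11 for BMS754807 tumour 5 and 1.68 for combination tumour 4, but 0.25 for control tumour 6, and every other tumour was at -0.21 or lower. By group that mean ran from -0.61 to 1.68 in the combination, -0.41 to 2.11 with BMS754807, -0.48 to 3.45 with hydroxychloroquine and -0.34 to 0.25 in controls. Hydroxychloroquine tumour 1 was highest for 12 of 12 of these genes, against 5.64% of all genes. In that group none of the 12 was above control at an unadjusted limma p of 0.05. Of all genes, 4.81% passed it in either direction. Cd79a, a signalling chain of the B cell receptor, was at 10.95 for hydroxychloroquine tumour 1, 9.25 for BMS754807 tumour 5, 7.98 for combination tumour 4 and 4.65 for control tumour 6, with a median of 3.00. The member Cd2 was also highest in the first 3 of these tumours, at 7.67, 6.68 and 5.55. It read 5.06 in control tumour 6, near its median of 5.05. The mean of 10 genes of lymph node stroma and high endothelium was 2.04 in hydroxychloroquine tumour 1, 1.06 in combination tumour 4 and 0.55 in BMS754807 tumour 5, but 0.90 in BMS754807 tumour 6, whose T cell marker mean was -0.24. Among them Cxcl13, the chemokine that draws B cells into follicles, read 13.93 in hydroxychloroquine tumour 1, 11.20 in combination tumour 4 and 11.46 in BMS754807 tumour 5, with a median of 6.87. BMS754807 tumour 6 read 13.27 for Cxcl13 with Cd79a at 3.60. Glycam1, a ligand of lymphocytes on high endothelium, read 7.95 in hydroxychloroquine tumour 1 and 5.70 in combination tumour 4, with a median of 3.01, and 2.79 in BMS754807 tumour 5. The adipocyte mean did not follow the T cell markers across tumours: it was 4.94 in BMS754807 tumour 6, 2.75 in hydroxychloroquine tumour 1 and 2.35 in combination tumour 5, but 0.19 in BMS754807 tumour 5 and 0.20 in combination tumour 4. The macrophage mean of hydroxychloroquine tumour 1 was -0.30. The part of B cells and lymph node tissue in the T cell marker values was not tested.

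Control tumour 6 differed from the other tumours high in T cell markers in several single genes. It had the highest mean of the 11 genes of T cell attracting chemokines and their receptors, 0.79, against 0.35 in hydroxychloroquine tumour 1. Cxcl9, a chemokine that interferon gamma induces and that draws activated T cells, was highest in this tumour, at 10.60, against 7.70 in hydroxychloroquine tumour 1 and 6.52 in BMS754807 tumour 5. High Cxcl9 also occurred without high T cell markers: it was 9.85 in combination tumour 6 and 9.22 in BMS754807 tumour 4, whose means of the 8 members were 0.06 and -0.22. Ifng itself was highest in control tumour 6, at 4.36 over a median of 3.14, near the low end of the scale. Xcr1 and Clec9a, markers of the dendritic cells that present antigen to CD8 T cells, were also highest there, at 5.01 and 4.68 over medians of 3.90 and 2.98. They are 2 of 10 dendritic cell genes, whose mean was about equal in hydroxychloroquine tumour 1, at 0.56, and control tumour 6, at 0.55. In control tumour 6, Zbtb46 at 3.11 and Ccr9 at 3.40 were just below their medians. In combination tumour 4, Cxcl9 was 10.03 and Clec9a 3.96, while Ifng at 2.74 and Xcr1 at 3.87 were below their medians.

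**Figure D3:**
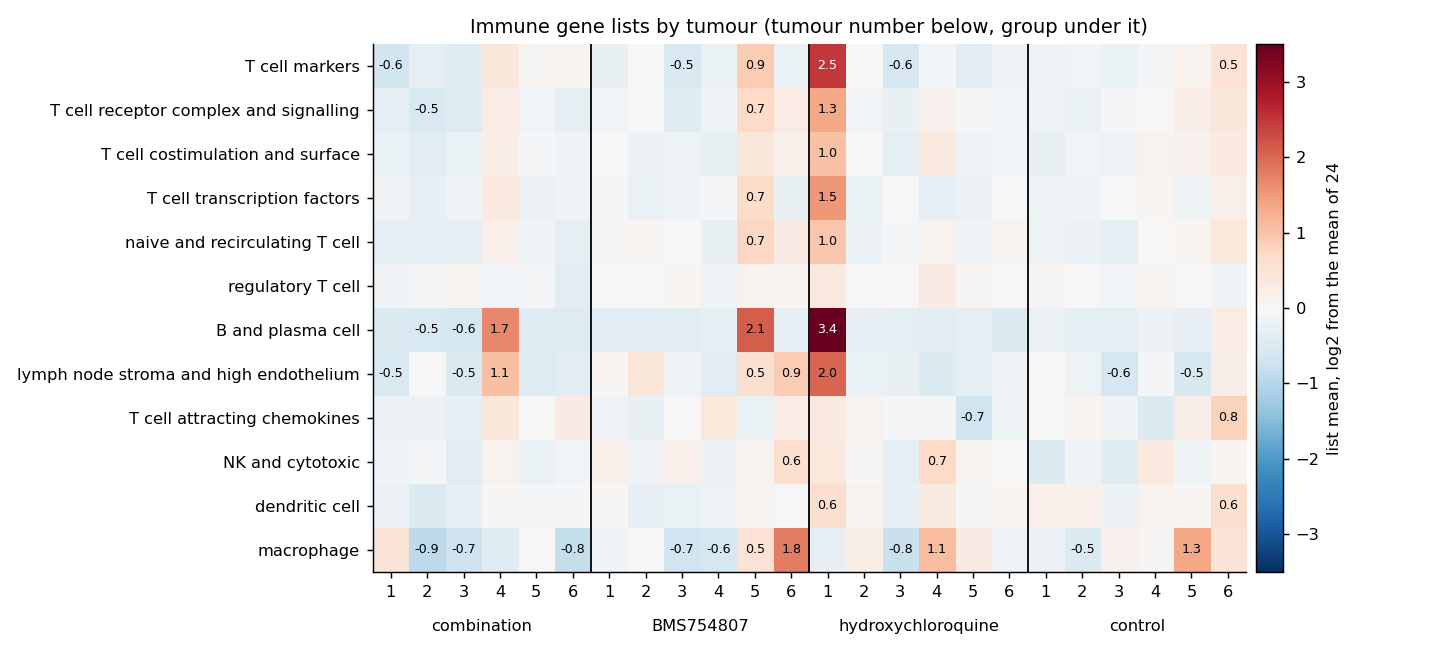
Mean of each gene list in each of the 24 tumours, as log2 distance from the mean over 24 tumours, with values of 0.5 or more in size printed. Columns are tumours 1 to 6 of the combination, BMS754807, hydroxychloroquine and control groups. Hydroxychloroquine tumour 1, BMS754807 tumour 5 and combination tumour 4 have the 3 highest B and plasma cell means, and control tumour 6 has the highest mean of attracting chemokines. The regulatory T cell list does not follow the T cell markers in combination tumour 4, at -0.10, or in control tumour 6, at -0.16.

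After the group means were subtracted, 27 of the 28 pairs of members correlated above 0 over the 24 tumours, with a median Pearson r of 0.61 and a median Spearman rho of 0.40. Of these, 15 had an adjusted permutation p under 0.05 for r and 8 for rho, adjusted over the 28 pairs. Cd3e and Cd8a were the closest pair, at r = 0.89 (permutation p = 3e-05, adjusted p = 0.00084) and rho = 0.61 (permutation p = 0.00152, adjusted p = 0.0127). Leaving out the 2 tumours farthest from the median of Cd3e gave r = 0.82, and leaving out hydroxychloroquine tumour 1 gave r = 0.79. Cd8b1 and Cd2 had r = 0.87 (permutation p = 0.00043) and rho = 0.69 (permutation p = 0.00182). Their r was 0.63 without the 2 tumours farthest from the median of Cd8b1. Cd3g and Cd8b1 had r = 0.86 (permutation p = 0.00015) and rho = 0.72 (permutation p = 0.00081). Their r was 0.68 without the 2 tumours farthest from the median of Cd3g. All pairs share their arrays.

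The 3 CD3 chains did not track each other equally. Cd3e and Cd3g had r = 0.83 (permutation p = 0.00029) and rho = 0.56 (permutation p = 0.012), with r = 0.65 without hydroxychloroquine tumour 1. Cd3d and Cd3e had r = 0.67 (permutation p = 0.0115) and rho = 0.43 (permutation p = 0.0423), but r = 0.31 without that tumour, so this relation rests largely on it. Cd4 followed Cd3e at r = 0.27 (permutation p = 0.245) and rho = 0.16 (permutation p = 0.449), and Cd8a at r = 0.20 (permutation p = 0.412) and rho = 0.12 (permutation p = 0.597). The closest member to Cd4 was Cd8b1, at r = 0.52 (permutation p = 0.00709) and rho = 0.50 (permutation p = 0.0117), with r = 0.44 without hydroxychloroquine tumour 1. For Cd5, r with the other 7 members ran from -0.01 to 0.44, and all 7 were below 0 without hydroxychloroquine tumour 1, down to -0.57 with Cd3d. Over all 28 pairs the median r was 0.33 without hydroxychloroquine tumour 1. It was 0.40, with 22 pairs above 0, without the 2 tumours farthest from the median of the first gene of each pair. The second gene of the pair was not used for that choice. For Cd4 with Cd8a, Cd8b1, Cd2 and Cd5 these were control tumour 5 and BMS754807 tumour 2, so hydroxychloroquine tumour 1 was kept.

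**Figure D4:**
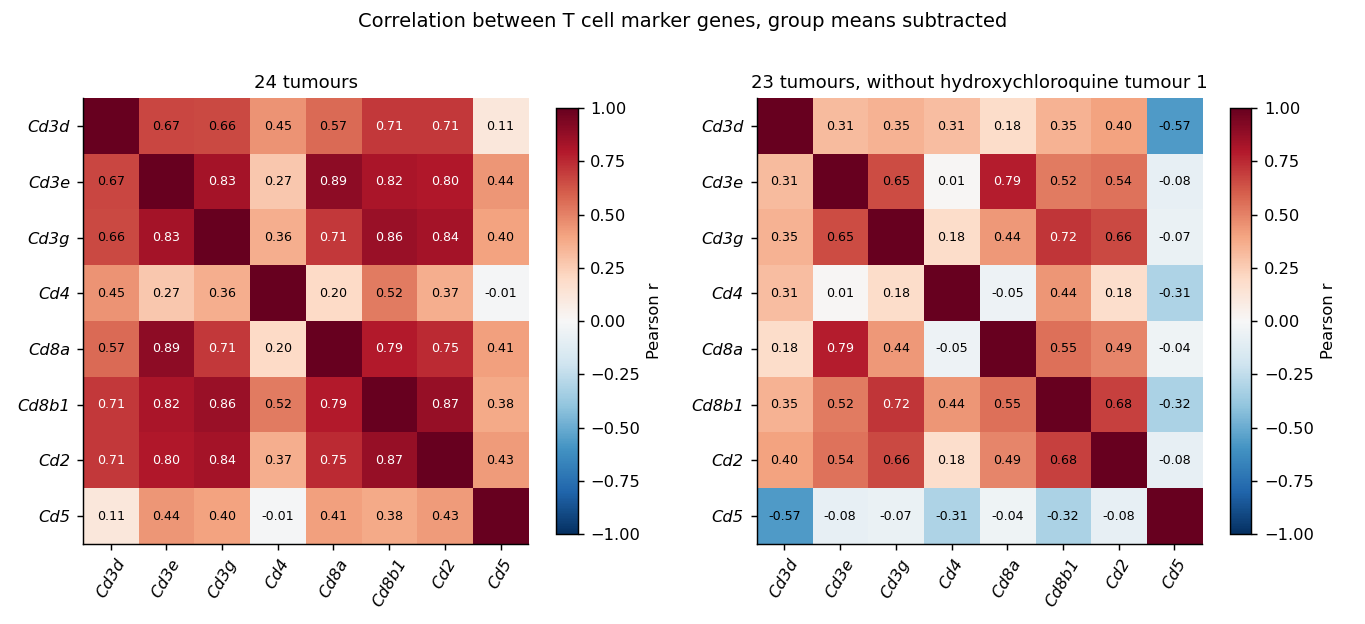
Pearson r between the 8 T cell marker genes with group means subtracted, over 24 tumours on the left and over 23 tumours, without hydroxychloroquine tumour 1, on the right. Cd3e, Cd3g, Cd8a, Cd8b1 and Cd2 keep r of 0.44 to 0.79 among themselves on the right. Cd4 reaches r = 0.44 with Cd8b1 and at most 0.18 with the other 4, and Cd5 is below 0 with all 5.

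**Figure D5:**
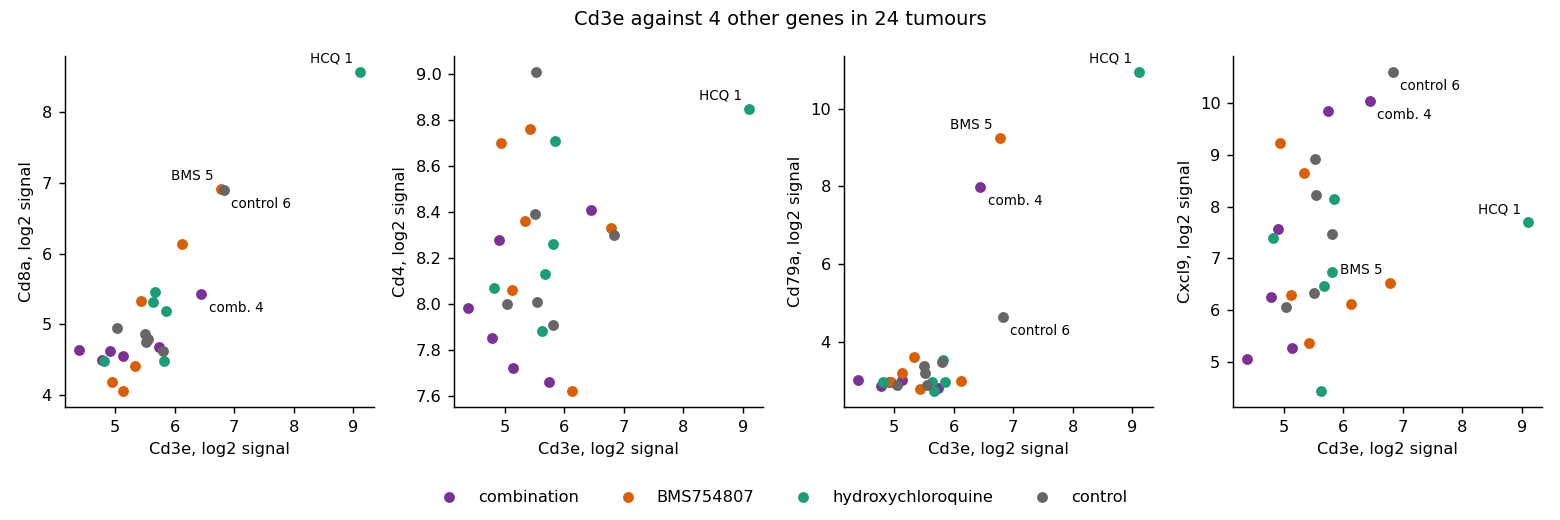
Log2 signal of Cd8a, Cd4, Cd79a and Cxcl9 against that of Cd3e, each point a tumour of the combination (comb.), BMS754807 (BMS), hydroxychloroquine (HCQ) or control group, with 4 tumours named, and 1 in the Cd4 panel. Cd8a is high where Cd3e is high, Cd4 follows it at r = 0.27 once group means are subtracted, Cd79a is high in 3 tumours, and Cxcl9 is highest in control tumour 6.

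Across all other genes, those most like the mean of the 8 members over the 24 tumours came from B cells as well as T cells. Ikzf3, a transcription factor of mature lymphocytes, was first at r = 0.93, followed by Cyfip2 at 0.92, Spib at 0.91 and Cd22 at 0.91, where Spib and Cd22 are a transcription factor and an inhibitory receptor of B cells. The first 15 also held Septin1, Lax1, Grap2, Pax5, Ripor2, H2-Ob, Ms4a4b, Sidt1, Rasal3, Cd79a and H2-DMb2, down to r = 0.89. Without hydroxychloroquine tumour 1 the first was Grap2, an adaptor of T cell receptor signalling, at r = 0.87, and Lax1, Rasal3 and Ikzf3 followed at 0.86, 0.85 and 0.85. Clec9a was then at rank 9, at r = 0.80, and at r = 0.46 with all tumours. For Cd8a alone the most alike were Grap2 at 0.90, Cd3e at 0.89, Ikzf3 at 0.85, H2-Ob at 0.85 and Cd6, a T cell surface receptor, at 0.85. For Cd4 alone they were Lmo2 at 0.75, Gm5643 at 0.73, 5430427O19Rik at 0.73, H2-Q2 at 0.72 and Dennd4a at 0.72, none of them in a T cell list used here.

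Of the other T cell genes none passed the adjusted test in any comparison with control. In the combination, 3 of 17 genes of receptor signalling were above control and 14 below, with a median of -0.33, while 48.3% of all genes were below. The lowest p there was that of Lcp2, the adaptor SLP-76, at -1.09 ± 0.42 (limma adjusted p = 0.944), and Vav1, an exchange factor downstream of it, was at -0.62 ± 0.29. Both are also made by myeloid cells, and 9 of 9 macrophage genes were below control in the combination, with a median of -0.55. The mean of the macrophage genes ran from -0.92 over a median of -0.57 to 0.45 in the combination and from -0.51 over 0.10 to 1.35 in controls, and its part in these 2 genes was not tested. Ctla4, an inhibitory receptor of regulatory and activated T cells, was at -0.82 ± 0.41 (limma adjusted p = 0.944).

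With BMS754807, 6 of 17 receptor signalling genes were above control and 11 below, and 4 of 14 costimulation genes above and 10 below. Of all genes, 49.6% were below control in this comparison, the share to set beside each list given here. All 7 genes of naive and recirculating T cells were above control, with a median of 0.13. Of these, 0 passed an unadjusted limma p of 0.05, against 5.88% of all genes. Prf1 and Gzmb, the pore protein and a protease of cytotoxic T and NK cells, were at 1.32 ± 0.48 and 0.97 ± 0.45, with limma adjusted p = 0.822 and adjusted p = 0.839. Of the 12 genes of their list 7 were above control and 5 below. Cd8a differed from control by 0.03 ± 0.57 in the same tumours. Of 11 regulatory T cell genes 7 were above control and 4 below, with a median of 0.03, among them the transcription factors Ikzf2 at -0.45 ± 0.21 and Ikzf4 at 0.36 ± 0.18. Of 11 chemokine and receptor genes 3 were above and 8 below, with a median of -0.10, and Ccl17, a chemokine for T cells that carry CCR4, was at 0.60 ± 0.22.

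With hydroxychloroquine alone, 9 of 17 receptor signalling genes were above control and 8 below, where 50% of all genes were below. Without tumour 1 of that group 5 were above and 12 below, where 51% of all genes were below. These shares of all genes apply to each list that follows. Klf2, which keeps T cells recirculating and is also made by endothelium, was at 0.79 ± 0.25 (limma adjusted p = 0.979) and was highest in hydroxychloroquine tumour 1, at 8.89. The 7 genes of its list were 4 above and 3 below control, with a median of 0.01. Zap70, the kinase that binds the CD3 chains and zeta chain, was at 0.47 ± 0.21, and Sla2, an adaptor that damps the receptor, at 0.56 ± 0.23. Of the transcription factors 6 were above and 5 below, and 2 and 9 without that tumour. The B and plasma cell list moved in the same way, from 10 above and 2 below with all tumours to 2 above and 10 below without tumour 1. Ptprc, the marker CD45 of all leukocytes, averaged 9.58 ± 0.76 in the combination, 9.88 ± 1.27 with BMS754807, 10.13 ± 1.47 with hydroxychloroquine and 9.93 ± 0.63 in controls (SD, n = 6 each), and was highest in hydroxychloroquine tumour 1 at 12.79.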

How the data were processed

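The deposited series table holds log2 signal per probe set as processed by the authors. The log base was inferred from the values, and Transcriptome Analysis Console 4.0 was used, per the submitters' processing notes. Background correction, normalization and summarization are not given in the sources used here. Per the labels, 250 ng of total RNA went on each array. Of 22206 probe sets, 19572 had 1 gene symbol, 0 several and 2634 none. The probe set with the highest mean was kept per gene, which dropped 67 and left 19505 genes. Groups were read from the sample titles, and 0 columns were left unused.

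The 24 arrays entered 1 limma 3.58.1 model with a coefficient for each group (R 4.3.3, lmFit and eBayes, 20 residual degrees of freedom), two-sided, with Benjamini-Hochberg adjustment over 19505 genes at 0.05. The model was also run on simulated data with a normal spread, and the outcome is not reported here. Correlations used values with the group mean subtracted and 100000 permutations within groups, two-sided. Arrays have no count depth, and their number limits the precision. The members, gene lists and tests were chosen with earlier results of these data known. All members were named, and of each list up to 3 genes with the smallest p in each comparison with control were eligible to be named, as were the 15 genes most like the members and the 5 most like Cd4 or Cd8a. Genes given for single tumours, among them Cd79a, Cxcl13, Glycam1, Cxcl9, Ifng, Xcr1 and Clec9a, were chosen from the lists after their values were seen. Same-numbered samples of different groups did not deviate together: 9 of 36 pairs correlated above 0.1 and the median was -0.01, so the numbers were not taken as pairs. Lck and Foxp3 were not analysed here.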

Additional observations from a re-analysis of the deposited data

Results flagged for a closer look

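In 8 of 32 sets of 6 tumours (8 genes in 4 groups) the highest tumour stood far from the others, by a test of the gap to the nearest tumour against the whole range (Dixon's test at 95% confidence). Chance flags about 1 in 20 independent sets. These sets are not independent, because the 8 genes were read on the same arrays, so their count cannot be judged against that rate. Most of the flags were from hydroxychloroquine tumour 1. In hydroxychloroquine tumour 1, Cd3e was 9.11 with the next tumour at 5.85, and Cd3g was 6.41 with the next at 4.11. In that tumour Cd8a was 8.56 with the next at 5.46, Cd8b1 was 6.99 with the next at 3.65, and Cd2 was 7.67 with the next at 5.15. In BMS754807 tumour 5, Cd2 was 6.68 with the next at 4.87. Cd8a was 5.43 in combination tumour 4 with the next at 4.68, and 6.89 in control tumour 6 with the next at 4.95.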

How the results depend on the processing

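No gene was called in any comparison, and this held in all but 8 of 231 repeats under other settings. The moderated F test called 2 genes with a trended and robust prior. A fit with the replicate number as a block called 1 gene for hydroxychloroquine against control, with no member called, and changed no other call; the shared numbers did not pair the samples. Leaving out 1 tumour gave 0 to 1 genes for BMS754807 against control (1 without BMS754807 tumour 1), for hydroxychloroquine against control (1 without BMS754807 tumour 6), for the combination against BMS754807 (1 without BMS754807 tumour 1 or combination tumour 6) and for any difference (1 without BMS754807 tumour 1 or 4). Over 1606 repeats of the 48 member results, 100 changed sign and 0 had an adjusted p under 0.05, the smallest being 0.584. With genes under the 30th percentile of means left out, Cd3g, Cd8b1 and Cd5 had no value. A fit on only the groups compared could not be made for the interaction.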
